A study of Mus musculus with 12 samples.

Results

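The CC chemokine ligands of peritoneal macrophages (Mϕ) were examined in 9 genes, Ccl2, Ccl7, Ccl12, Ccl8, Ccl3, Ccl4, Ccl6, Ccl9 and Ccl24. They were chosen by name, as the rows whose Ensembl identifiers carry these symbols in both tables of the series, and are 9 of the 47643 identifiers listed. A further 13 CC ligands were looked up for comparison. The libraries came from female C57/BL6 mice, 8 to 12 weeks old, that all received zymosan A (5 mg/kg, i.p.), a yeast cell wall preparation that sets off a self-limiting peritonitis. From day 1 the mice were given either compound III (CIII, 25 mg/kg each day, i.p.), an inhibitor of the prostaglandin E synthase mPGES-1, or its vehicle of Tween-80, carboxymethyl cellulose and saline (VEH). At day 6 cells of the peritoneal lavage that stained for CD45 and CD11b were sorted as F4/80lo Mϕ (low for F4/80 and MerTK, without Ly6G and with MHCII) or as F4/80hi Mϕ (high for F4/80 and MerTK), with 3 VEH and 3 CIII libraries of each. CIII was given to the whole animal, so the sorted cells had no treatment of their own, and a mouse without zymosan is not among the groups.

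CC chemokines are small secreted proteins with a pair of adjacent cysteines that bind G protein-coupled receptors on leukocytes and draw these cells along a concentration gradient. Macrophages are among their main sources in an inflamed peritoneum. Ccl2, Ccl7 and Ccl12 act on Ccr2, the receptor by which inflammatory monocytes leave the bone marrow and enter tissue, while Ccl3, Ccl6 and Ccl9 act on Ccr1 and Ccl24 on the eosinophil receptor Ccr3. Ccl4 draws monocytes and T cells.

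Of the 9 genes, 8 lie on chromosome 11 (GRCm38, GENCODE). Ccl2 (82035571 to 82037453), Ccl7 (82045712 to 82047525), Ccl12 (82101845 to 82103400) and Ccl8 (82115185 to 82116799) follow each other on the plus strand. A second cluster holds Ccl9 (83572919 to 83578636), Ccl6 (83587882 to 83593087) and Ccl3 (83647844 to 83649355) on the minus strand and Ccl4 (83662584 to 83664683) on the plus strand. Ccl24 lies apart, on chromosome 5 (135569937 to 135573049, minus strand). Despite their kinship the transcripts can be told apart: the longest run of identical bases that any member shares with another is 25 bases, between Ccl6 and Ccl9, and 8 of the 9 share no run of 50 bases with any other gene of GENCODE. Ccl9 is the exception, with 59 of its 2996 runs of 50 bases found in other genes. Ccl2 overlaps Gm17268 and Ccl6 overlaps E230016K23Rik on the opposite strand. Gm17268 had 0 reads in every library and E230016K23Rik at most 133, and the strand setting of the authors' counting is not given in the sources used here.

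RefSeq promoter windows (GRCm38.p6, 250 bases before to 50 after the start site) were at hand for 5 of the 9 genes, Ccl12, Ccl8, Ccl3, Ccl6 and Ccl9. The windows of 2 pairs of neighbours are printed, because within each pair the genes lie side by side on 1 strand, and the means of Ccl12 and Ccl8 differed in opposite directions in F4/80hi Mϕ while Ccl6 and Ccl9 were the abundant members. Capitals mark each match, on either strand, to the motifs named below. The windows are Ccl12 at chr11:82101595-82101894 (plus strand), Ccl8 at chr11:82114935-82115234 (plus), Ccl6 at chr11:83593038-83593337 (minus) and Ccl9 at chr11:83578587-83578886 (minus), each written 5′ to 3′ along the gene.
Ccl12: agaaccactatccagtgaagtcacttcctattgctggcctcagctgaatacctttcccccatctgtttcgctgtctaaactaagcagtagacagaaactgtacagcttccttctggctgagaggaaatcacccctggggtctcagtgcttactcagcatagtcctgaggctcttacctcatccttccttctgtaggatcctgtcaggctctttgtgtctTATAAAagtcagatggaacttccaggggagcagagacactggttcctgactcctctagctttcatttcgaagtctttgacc
Ccl8: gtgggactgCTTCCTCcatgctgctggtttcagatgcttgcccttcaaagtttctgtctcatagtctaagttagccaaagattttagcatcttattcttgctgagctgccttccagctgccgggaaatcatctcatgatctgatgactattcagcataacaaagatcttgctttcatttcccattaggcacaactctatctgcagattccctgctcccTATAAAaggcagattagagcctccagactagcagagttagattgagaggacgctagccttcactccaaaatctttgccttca
Ccl6: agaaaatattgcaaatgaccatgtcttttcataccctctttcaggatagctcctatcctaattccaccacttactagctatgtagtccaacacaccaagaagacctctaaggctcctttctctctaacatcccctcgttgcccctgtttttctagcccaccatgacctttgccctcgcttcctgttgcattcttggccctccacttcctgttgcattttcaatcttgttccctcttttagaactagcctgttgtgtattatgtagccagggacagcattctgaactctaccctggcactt
Ccl9: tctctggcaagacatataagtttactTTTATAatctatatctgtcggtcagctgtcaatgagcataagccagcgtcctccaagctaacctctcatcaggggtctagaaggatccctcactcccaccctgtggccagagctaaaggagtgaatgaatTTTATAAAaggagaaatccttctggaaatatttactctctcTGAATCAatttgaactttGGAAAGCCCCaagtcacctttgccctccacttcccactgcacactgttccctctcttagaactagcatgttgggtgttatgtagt
Ccl12 and Ccl8 each hold a TATA box (TATAAA), at position -31 and -32 from the start site, and Ccl8 a PU.1 core (GAGGAAG) on the reverse strand. Ccl9 holds an AP-1 letter match (TGANTCA) at -53, an NF-kB consensus match at -35 on the reverse strand that does not overlap it, and TATAAA at -92 on the forward strand and at -94 and -224 on the reverse strand, the first pair overlapping. Ccl6 held none of the motifs searched, and Ccl3, which is not printed, held 1, an interferon response element (ISRE, GAAANNGAA), on the reverse strand at -39. TATAAA was found in 3 of the 5 windows, against 13.6% of the 32851 windows of this length in the table, and the NF-kB consensus in 1 of 5, against 4.51%. AP-1 stood in 7.81%, ISRE in 8.56% and the PU.1 core in 13.6% of all windows, and each in 1 of the 5. The short cAMP response site (TGACG) was in 0 of the 5 and 20.8% of all windows, the full site (TGACGTCA) in 0 and 1.79%, and the C/EBP motif (TTGCNNAA) in 0 and 10.8%. The longest run of bases shared by Ccl6 and Ccl9 was 13, and by Ccl12 and Ccl8 11.

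Libraries held 426624 to 3389448 reads on genes, so that 1 read was worth 0.333 to 2.28 normalized counts, the deposited unit (reads divided by a size factor of the library). Where no read was seen, up to 3 could have been present, or 0.885 to 7.03 reads in 1000000, by counting error alone. The replicate number 3 libraries stood apart from the others. Gm42418, a gene that overlaps ribosomal RNA, took 2.65 to 14.3% of their reads against 0.0723 to 0.579% elsewhere. Both number 3 libraries labelled F4/80hi went partly against the label: Adgre1, which encodes F4/80, stood at 404 (VEH) and 351 (CIII) normalized counts against 1025 to 1207 in the other 4 F4/80hi libraries, and Gata6, a factor of resident peritoneal Mϕ, at 2.10 and 5.47 against 20.9 to 47.0. Ccr2 was at 1321 and 672 there against 18.3 to 276. In F4/80lo Mϕ Adgre1 ran from 196 to 352. VEH library 3 of F4/80lo Mϕ went against the MHCII part of its sort, with H2-Aa at 680 and H2-Ab1 at 768 against 3602 to 7750 for both genes in the other 5 F4/80lo libraries, and it had the highest Ly6c2, a monocyte gene, among them (224 against 23.1 to 68.5). Mertk, which was part of the sort, did not part the populations (174 to 386 among F4/80hi libraries, 176 to 439 among F4/80lo libraries). The differences between CIII and VEH are therefore given also from replicate numbers 1 and 2 alone. The study's statistics section speaks of independent experiments in general, but the sources do not tie each library to a mouse, so p-values measure the spread between these libraries, and in bulk RNA fewer expressing cells and less RNA per cell cannot be told apart.

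In F4/80lo Mϕ the Ccr2 ligands Ccl2, Ccl7 and Ccl12 had a lower mean with CIII, though none passed adjustment over all genes. By mean normalized count Ccl2 was 4.63 times, Ccl7 6.78 times and Ccl12 20.5 times lower than with VEH, and none of their CIII libraries reached a VEH library. The ratio of Ccl12 was 8.50 without VEH library 3 and rested on 4 CIII reads, and that of Ccl7 was 4.52 without CIII library 2 and 10.6 without CIII library 3. The abundant Ccl6 and Ccl9 differed by 1.36 and 1.09 times. In the main limma fit no single gene passed the adjusted threshold. All 9 members had a lower mean with CIII, and 5 were lower at an unadjusted p under 0.05 (Ccl2, Ccl7, Ccl12, Ccl8 and Ccl3), beside 1.61% of the 10718 genes tested. At an adjusted p under 0.05 limma called 0 members and 0 genes (0%), with 289 genes at an unadjusted p under 0.05. edgeR called 0 genes, and DESeq2 and limma with array weights 2 each, none of them a member. With the replicate number as a block edgeR called 4 genes, of which 1 was a member (Ccl24). The adjusted p of each member was 0.9996 in the main limma fit, and that of Ccl2 was 0.0975 with DESeq2. The median log2 difference over the members was -2.33, beside -0.052 over all genes tested. All 9 passed the filter of a mean of 3 normalized counts, but Ccl3 and Ccl12 did so through their VEH libraries, since their CIII mean was under 3, so the counts describe the members and support nothing. Scaling to RPM (reads per 1000000) kept 5 members at an unadjusted p under 0.05, while the split of all such genes went from 173 lower of 289 to 129 lower of 287. When each of the 6 libraries was left out in turn, Ccl2 and Ccl7 stayed under 0.05 unadjusted in 6 of 6 fits and Ccl12 in 5, while Ccl3 and Ccl8 did so in 2 each. Quantile normalization gave 144 lower of 286 and left 3 members (Ccl2, Ccl7 and Ccl12).

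Ccl2, the chief ligand of Ccr2, was counted at 53.5, 87.3 and 108 in VEH libraries 1, 2 and 3 of F4/80lo Mϕ and at 23.4, 16.0 and 14.4 in CIII libraries 1, 2 and 3. Every CIII library lay below every VEH library. The means were 83.0 ± 27.6 and 17.9 ± 4.82 (SD, n = 3 each), a difference of -2.12 on the scale of log2(normalized count + 1), with a 95% interval of -3.10 to -1.15 (limma unadjusted p = 0.000524). The exact permutation p was 0.1, the smallest that 3 libraries against 3 can give. Ccl2 differed by -1.77 when only numbers 1 and 2 were used.

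Ccl7, which also binds Ccr2 and is the next gene downstream, was at 18.6, 25.7 and 34.3 with VEH and at 4.97, 0 and 6.63 with CIII. Again no libraries overlapped. The difference was -2.89 (95% interval -4.74 to -1.04, limma unadjusted p = 0.00545; -3.23 without number 3) from 139 reads over the VEH and 13 over the CIII libraries. Ccl12, a further Ccr2 ligand of the mouse, was at 5.82, 10.3 and 42.0 with VEH and at 2.84, 0 and 0 with CIII. VEH library 3 carried most of its VEH level, and the difference of -3.25 (-5.50 to -1.003, limma unadjusted p = 0.00856) was -2.16 from numbers 1 and 2 (unadjusted p = 0.0914). Only 4 reads of Ccl12 were counted over the CIII libraries, all in library 1. The study had already listed Ccl12 among the genes lower with CIII in both populations of these same libraries, so its values are not independent evidence.

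Ccl8, in the mouse a ligand of Ccr8, had 6.98, 12.8 and 32.3 normalized counts with VEH and 12.8, 0 and 1.11 with CIII. CIII library 1 lay at the level of VEH library 2, so the groups overlapped. The difference was -2.33 (-4.61 to -0.046, limma unadjusted p = 0.0463), and -1.50 without number 3 (unadjusted p = 0.283). Together Ccl2, Ccl7, Ccl12 and Ccl8 summed to 84.9, 136 and 217 normalized counts in the VEH libraries and to 44.0, 16.0 and 22.1 in the CIII libraries, without overlap, a sum that holds Ccl2, which did not overlap by itself. VEH library 3, with low MHC class II and high Ly6c2 counts, had the highest value of each of the 4 genes, and without it their differences were -1.90, -2.68, -2.49 and -1.77; the part of these marker genes in the ligand values was not tested. The same sums overlapped in F4/80hi Mϕ, at 29.3, 88.8 and 304 with VEH and 137, 43.3 and 71.1 with CIII.

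Ccl3 and Ccl4, attractants of monocytes and T cells, were split. Ccl3 was at 23.3, 11.6 and 1.998 with VEH and at 2.84, 0 and 0 with CIII, a difference of -2.63 (-5.07 to -0.19, limma unadjusted p = 0.0368) that was -3.16 without number 3, and CIII library 1 lay above VEH library 3. Ccl4, encoded beside it and often induced with it, was at 31.4, 8.99 and 17.3 with VEH and at 12.8, 13.7 and 0 with CIII. Its groups overlapped, and the difference of -1.62 (-3.85 to 0.60) was -0.34 without number 3.

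Ccl6 stood at 5868, 5933 and 5307 with VEH and at 5108, 4989 and 2461 with CIII. All 3 CIII libraries lay below the VEH libraries, but by a small margin in libraries 1 and 2, and the difference was -0.52 (-1.62 to 0.59, limma unadjusted p = 0.324), or -0.22 without number 3. In RPM CIII libraries 1 and 2 (5534 and 5119) lay above VEH library 3 (4700). Ccl9, its neighbour, was at 1024, 1295 and 885 with VEH and at 1301, 1071 and 563 with CIII, so the groups overlapped and the difference was -0.19 (-1.10 to 0.71), or 0.036 without number 3.

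Ccl24, an eosinophil attractant that alternatively activated Mϕ make, varied widely. It was at 64.0, 213 and 0.999 with VEH and at 4.97, 22.8 and 0 with CIII. Library 3 was near 0 under both treatments, libraries 2 were the highest of each, and within numbers 1 and 2 CIII was lower. Number 3 had 3 reads with VEH (0.885 RPM) and 0 with CIII, which allows up to 3.48 RPM, so a difference was not detectable there. The unpaired difference of -2.54 (-5.92 to 0.84) had an unadjusted p of 0.127 in limma, while blocking on the number gave an unadjusted p of 0.00269 (adjusted 0.649). With numbers 1 and 2 alone it was -3.31 (limma unadjusted p = 0.00197), and leaving out 1 library gave -4.50 (without VEH library 3) to -1.13 (without VEH library 2), with -1.35 without CIII library 3. Retnla, another gene of alternatively activated Mϕ that was named after its values were seen, was at 1806, 4082 and 8.33 with VEH and at 169, 366 and 16.6 with CIII, with the same libraries high and low.

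**Figure D1:**
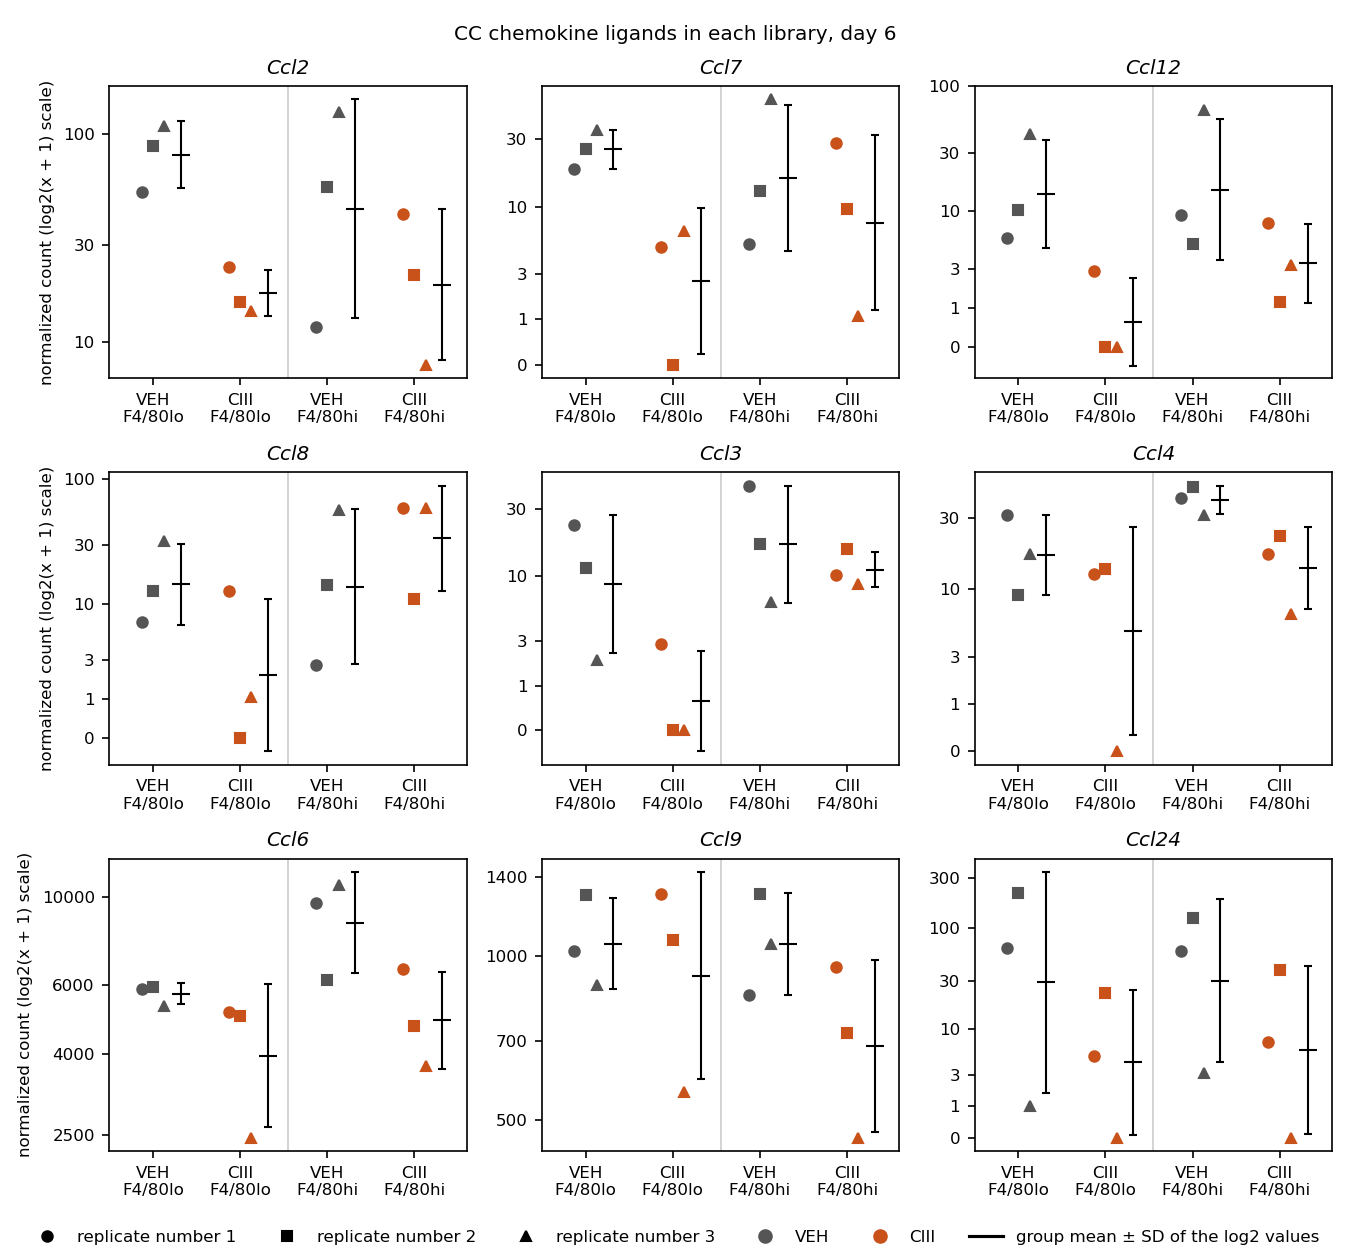
Normalized count of each CC ligand (y axis, log2(x + 1) scale, ranges differ between panels) in the 12 libraries, by treatment and population (x axis). Points are libraries, shapes give the replicate number and bars the group mean ± SD of the log2 values; in F4/80lo Mϕ the CIII libraries of Ccl2 (14.4 to 23.4) sit below its VEH libraries (53.5 to 108), while Ccl24 is near 0 in all number 3 libraries.

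In F4/80lo Mϕ 4 members had no CIII library at or above a VEH library in normalized counts (Ccl2, Ccl7, Ccl12 and Ccl6), beside 4.92% of the genes tested. In RPM the groups of Ccl6 overlapped. Within replicate numbers CIII was lower 3 times of 3 for 6 members (Ccl2, Ccl7, Ccl12, Ccl3, Ccl6 and Ccl24), beside 15.7%. For Ccl24 and Ccl3 number 3 counts by its listed values alone, since their VEH levels there (0.885 and 1.77 RPM) lay under the 3.48 RPM that 0 reads allow in the CIII library. With the replicate block 6 members were lower at an unadjusted p under 0.05, beside 3.85%. The 6 were the former 5 and Ccl24, and edgeR with the block gave Ccl24 an adjusted p of 0.0162, the only member past 0.05 in any fit of this contrast (its adjusted p ranged from 0.0162 to 1 over the alternatives). Ccl8 was higher with CIII in number 1, Ccl4 in number 2 and Ccl9 in number 1.

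In F4/80hi Mϕ Ccl4 was lower in every CIII library, Ccl2 and Ccl7 were higher with CIII in number 1 and lower in number 3, and the mean of Ccl8 was higher. No member passed the adjusted threshold. Here 8 members had a lower mean with CIII, and 1 was lower at an unadjusted p under 0.05 (Ccl4), beside 2.65% of the 10499 genes tested. The adjusted p of each was 0.992, limma called 0 genes (0%) with 413 at an unadjusted p under 0.05, and edgeR and DESeq2 also called 0. The median difference over the members was -0.99 on the log2 scale, beside 0.053 over all genes tested. Scaled to RPM, 186 of 432 genes at an unadjusted p under 0.05 were lower, in place of 278 of 413, the median over all genes was 0.15, and Ccl4 was still the member below 0.05.

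Ccl4 was at 41.2, 48.3 and 31.4 in VEH libraries 1, 2 and 3 of F4/80hi Mϕ and at 17.3, 22.8 and 6.56 in the CIII libraries. It was the 1 member with every CIII library below every VEH library, beside 5.76% of genes. Its means of 40.3 ± 8.48 and 15.6 ± 8.28 (SD, n = 3 each) differed by -1.45 (-2.63 to -0.27, limma unadjusted p = 0.0209, exact permutation p = 0.1), and by -1.13 without number 3 (unadjusted p = 0.0362). It stayed under 0.05 unadjusted in 3 of the 6 fits that left out 1 library, and not without VEH library 1, VEH library 2 or CIII library 3. Ccl3 was at 43.9, 17.0 and 6.29 with VEH and at 10.1, 15.6 and 8.75 with CIII. VEH library 1 was high and the rest overlapped, with a difference of -0.57 (-2.13 to 0.99) that was 0.088 when VEH library 1 was left out and -1.06 without number 3.

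Ccl2 was at 11.97, 56.2 and 127 with VEH and at 41.9, 21.6 and 7.66 with CIII in F4/80hi Mϕ. VEH library 3 was highest and CIII library 3 lowest, and the difference of -1.17 (-3.10 to 0.77) turned to 0.19 without number 3. Ccl7 was highest and lowest in the same libraries, at 5.32, 13.1 and 55.6 with VEH and at 28.2, 9.61 and 1.09 with CIII. Its difference of -0.99 (-3.39 to 1.42) turned to 0.90 without number 3, the number in which the VEH library had a Ccr2 count of 1321 and a Ly6c2 count of 370 against 672 and 52.5 in the CIII library. The part of this difference in monocyte genes in the values of Ccl2 and Ccl7 was not tested.

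Ccl12 stood at 9.31, 5.23 and 65.0 with VEH and at 7.94, 1.20 and 3.28 with CIII. VEH library 3 held most of it, and the difference was -1.88 (-4.05 to 0.28), or -0.85 without number 3. Ccl8 was at 2.66, 14.4 and 56.6 with VEH and at 59.2, 10.8 and 59.1 with CIII. CIII library 1 was high where VEH library 1 was near 0, and the difference of 1.24 (-1.01 to 3.49, limma unadjusted p = 0.244) was made of 4.04 within number 1, -0.38 within number 2 and 0.061 within number 3, and was 1.83 without number 3.

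Ccl6 was at 9694, 6163 and 10748 with VEH and at 6573, 4725 and 3747 with CIII. CIII library 1 lay above VEH library 2, so the groups overlapped by 1 library, and the difference was -0.82 (-2.04 to 0.40), or -0.47 without number 3. Ccl9 was at 850, 1305 and 1054 with VEH and at 954, 723 and 464 with CIII, a difference of -0.62 (-1.52 to 0.27), or -0.34 without number 3. Ccl24 was at 59.8, 122.8 and 3.14 with VEH and at 7.22, 38.5 and 0 with CIII. As in F4/80lo Mϕ, the number 3 libraries were lowest and the number 2 libraries highest, with a difference of -2.20 (-5.54 to 1.15, limma unadjusted p = 0.172) and an unadjusted p of 0.0011 with the replicate block (adjusted 0.168, the lowest of its alternatives). It was -2.27 without number 3 (unadjusted p = 0.0309) and ran from -3.66 (without VEH library 3) to -0.81 (without CIII library 3) with 1 library left out.

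**Figure D2:**
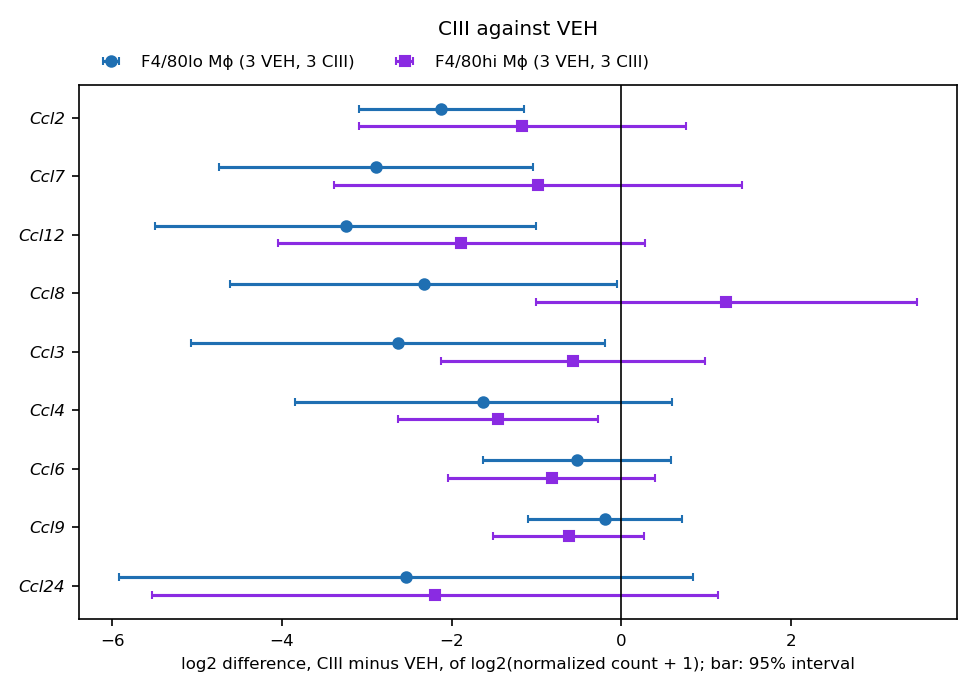
Difference between CIII and VEH for each CC ligand (x axis, log2(normalized count + 1), bars 95% intervals from limma) in F4/80lo (circles) and F4/80hi (squares) Mϕ, 3 libraries per treatment. The intervals of Ccl2, Ccl7, Ccl12, Ccl8 and Ccl3 among F4/80lo libraries, and that of Ccl4 among F4/80hi libraries, leave out 0; none passes adjustment over all genes.

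Within replicate numbers, 4 members were lower with CIII 3 times of 3 in F4/80hi Mϕ (Ccl4, Ccl6, Ccl12 and Ccl24), beside 16.6% of genes. The block gave 3 members lower at an unadjusted p under 0.05 (Ccl4, Ccl12 and Ccl24), beside 6.24%, in place of the 1 without it. By listed values 3 members were lower in every number of both populations (Ccl6, Ccl12 and Ccl24), beside 4.44% of the 10097 genes tested in both, but for Ccl24 the difference in number 3 of F4/80lo Mϕ was not detectable. For Ccl12, number 1 of F4/80hi Mϕ rested on 7 VEH and 11 CIII reads (9.66 and 8.78 RPM) and number 2 on 4 and 1. Number 1 of F4/80lo Mϕ rested on 5 and 4 reads of Ccl12, so counting error alone could turn these directions. For Ccl24 the differences within numbers 1, 2 and 3 were -3.45, -3.17 and -0.9995 among F4/80lo Mϕ. Among F4/80hi Mϕ they were -2.89, -1.65 and -2.05.

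**Figure D3:**
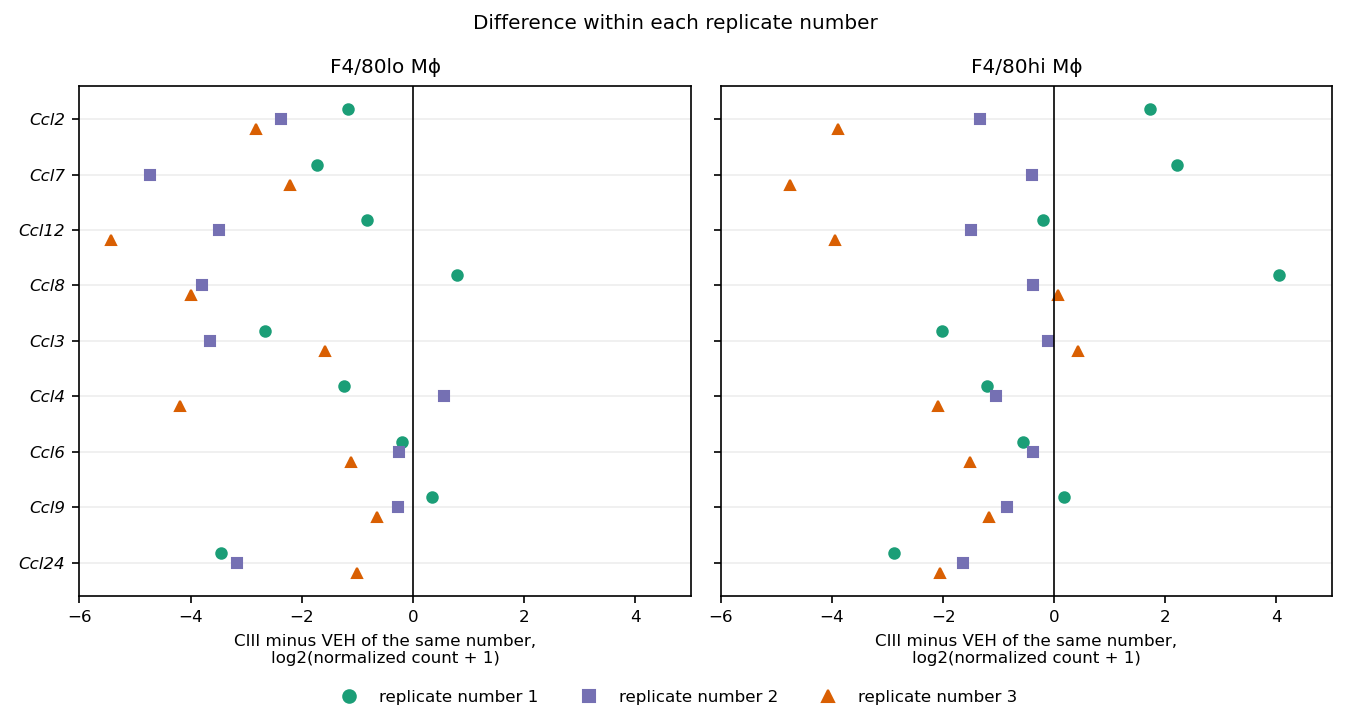
CIII minus VEH of the same replicate number (x axis, log2(normalized count + 1)) for each CC ligand in F4/80lo (left) and F4/80hi (right) Mϕ, with 1 point per number. Ccl24 lies below 0 at all 6 points, of which those of number 3 rest on 3 VEH reads and 0 CIII reads each, while Ccl2 and Ccl7 in F4/80hi Mϕ run from above 0 in number 1 (1.73 and 2.21) to below -3.8 in number 3.

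Whether the response itself differed between populations was tested as the difference of the 2 differences over the 12 libraries. Ccl8 was the 1 member at an unadjusted p under 0.05, beside 1.71% of the 10097 genes tested. Its difference was -3.57 (-6.93 to -0.21, limma unadjusted p = 0.039, adjusted 0.999), with the mean of F4/80lo Mϕ lower and that of F4/80hi Mϕ higher under CIII. It stayed under 0.05 unadjusted in 4 of the 12 fits that left out 1 library, and was -3.33 without number 3 (unadjusted p = 0.0783). For Ccl2 the difference was -0.96 (-3.19 to 1.27) and for Ccl7 -1.90 (-5.06 to 1.26). Without number 3 that of Ccl7 was -4.13 (limma unadjusted p = 0.0101, adjusted 0.992), and Ccl7 was then the 1 member under 0.05. limma called 0 genes here, with 173 at an unadjusted p under 0.05, and edgeR and DESeq2 called 0 (166 and 193 unadjusted), in both of which Ccl8 was not below 0.05.

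The level of the ligands in the 2 populations was compared in reads per 1000000 reads of the library (RPM), since the size factors had been set in each population separately. The libraries are 3′ tags with 1 read per transcript end, so levels of different genes can be set side by side without a length correction. Ccl6 alone made up 78.1 to 90.4% of the reads of the 9 members in a library, and Ccl6 and Ccl9 together 95.1 to 99.3%. In all the members took 0.319 to 1.11% of a library's reads.

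Ccl6 led in both populations, where F4/80lo Mϕ had 5082 ± 1385 RPM and F4/80hi Mϕ 7195 ± 2414 (SD, n = 6 each), and Ccl9 followed at 1060 ± 333 and 940 ± 314. Both stood above the next gene in 6 of 6 libraries of each population. Ccl24 (55.0 ± 91.4) and Ccl2 (50.6 ± 38.0) came next in F4/80lo Mϕ and could not be ranked, since each was higher in 3 of 6 libraries. Ccl2 stood above Ccl7 (15.0 ± 12.7) in 6 of 6, and Ccl7, Ccl4, Ccl8, Ccl12 and Ccl3 (6.91 ± 9.58) differed by less than their spread. In F4/80hi Mϕ Ccl2 (44.7 ± 40.2), Ccl24, Ccl8, Ccl4, Ccl7, Ccl3 and Ccl12 (14.7 ± 21.9) overlapped in the same way.

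Against this spread, 0 members differed in level between the populations at an adjusted p under 0.05, beside 0.0373% of the 10736 genes tested (4 genes by limma and 2 by edgeR). At an unadjusted p under 0.05, 2 members were lower in F4/80lo Mϕ (Ccl3 and Ccl8), beside 2.8%. Scaling by TMM gave 463 lower of 1001 genes at that p in place of 301 of 1016 and added Ccl4. No member had 6 libraries against 6 without overlap, beside 0.717%. The member median was -0.49 on the log2 scale, F4/80lo minus F4/80hi, beside 0.068 over all genes.

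F4/80lo Mϕ had 0 to 23.9 RPM of Ccl3 (median 2.42) against 5.71 to 45.6 of F4/80hi Mϕ (median 14.4). It was lower in F4/80lo Mϕ in each of the 6 pairs of libraries with the same treatment and number. The difference was -1.98 (-3.39 to -0.56, limma unadjusted p = 0.00954, adjusted 0.337, two-sided exact permutation p = 0.0563, of which 0.00216 is the smallest possible). With treatment and number as a replicate block the adjusted p was 0.0415, and Ccl3 was then the 1 member called, beside 4.79% of genes. The sources do not say that same-numbered libraries of the 2 populations share a mouse or a day, and this pairing rests on the numbers and on the data, in which they deviated together (correlations across genes of 0.259 to 0.685). Over the alternatives its adjusted p ranged from 0.0415 to 0.967, and its unadjusted p stayed under 0.05 in 12 of 12 fits that left out 1 library, which that of Ccl8 did in 4. Without number 3 Ccl3 differed by -1.81 (adjusted 0.169). Among VEH libraries it differed by -0.90 (limma unadjusted p = 0.371) and among CIII libraries by -3.05 (unadjusted p = 0.00525), while the test between these, the response difference, gave an unadjusted p of 0.128.

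F4/80lo Mϕ had 0 to 32.3 RPM of Ccl4 (median 14.0) against 6.88 to 53.5 of F4/80hi Mϕ (median 27.1), and it was likewise lower in F4/80lo Mϕ in 6 of 6 pairs, by -1.30 (-2.67 to 0.062, limma unadjusted p = 0.06). With the replicate block its unadjusted p was 0.00499 (adjusted 0.0745), and from numbers 1 and 2 it was 0.0472. Ccl6 was lower in 6 of 6 pairs too, by -0.49 (-1.27 to 0.30), with ranges of 2580 to 6527 and 3927 to 10066 that overlapped. The share of all genes lower in 6 of 6 pairs was not counted, so the pair counts of Ccl3, Ccl4 and Ccl6 are descriptions only. Ccl8 was at 0 to 28.6 RPM among F4/80lo libraries against 2.76 to 65.5 among F4/80hi libraries. Its difference of -1.77 (-3.41 to -0.13, limma adjusted p = 0.49) was -3.58 among CIII libraries and 0.045 among VEH libraries.

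Ccl2 ran from 15.1 to 96.0 RPM among F4/80lo libraries against 8.03 to 115 among F4/80hi libraries, a difference of 0.31 (-0.78 to 1.40). Ccl9 differed by 0.18 (-0.47 to 0.83), Ccl7 by -0.36 (-1.93 to 1.20), Ccl12 by -0.84 (-2.32 to 0.64) and Ccl24 by -0.25 (-3.01 to 2.50). The interval of Ccl24 is wide enough to hold differences of several doublings in either direction.

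**Figure D4:**
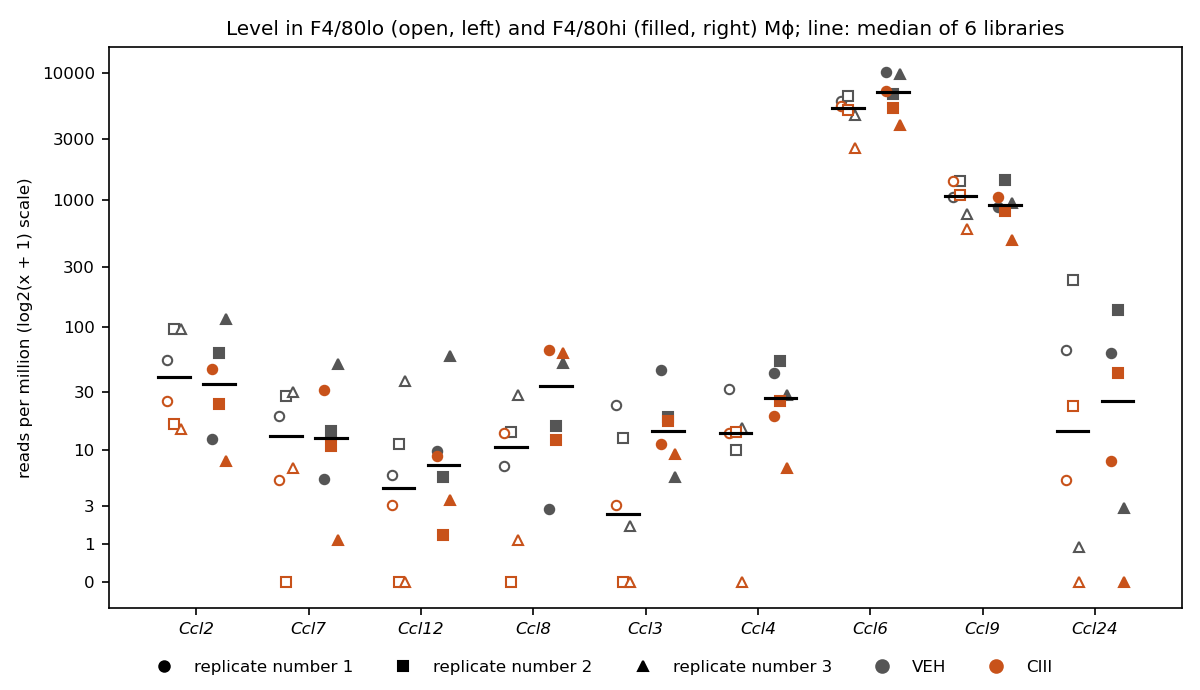
RPM (y axis, log2(x + 1) scale) of each CC ligand (x axis) in the 6 F4/80lo (open) and 6 F4/80hi (filled) libraries, coloured by treatment, with lines at the medians. Ccl6 and Ccl9 lie at 487 to 10066 in every library, and the other 7 members at 234 or less.

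Some members of 1 chromosomal cluster varied together from library to library, and so did some pairs from different clusters. After centring each population on its own mean, Ccl2 and Ccl7 had a Pearson r of 0.88 over the 12 libraries (0.85 among F4/80lo libraries, 0.94 among F4/80hi libraries), and 0.84 over the 8 libraries of numbers 1 and 2. Ccl2 and Ccl12 had 0.81 (0.58 without number 3), Ccl7 and Ccl12 0.76 (0.75), and Ccl12 and Ccl8 0.66 (0.56). The pairs with Ccl8 differed by population: with Ccl2, Ccl7 and Ccl12 it had 0.83, 0.83 and 0.92 over the 6 F4/80lo libraries but 0.34, 0.27 and 0.29 over the 6 F4/80hi libraries, with Ccl3 0.57 and -0.95, and with Ccl24 0.042 and -0.80. Ccl6 and Ccl9 had 0.74, which was 0.16 without number 3, and Ccl4 and Ccl6 0.78, which was 0.38. Ccl3 and Ccl4 had 0.57 (0.45), Ccl3 and Ccl24 0.68 (0.56), and Ccl24 and Ccl8 -0.33 (-0.18). Across clusters Ccl6 and Ccl12 had 0.70 (0.68 without number 3), Ccl3 and Ccl12 0.31 (0.77) and Ccl3 and Ccl7 0.33 (0.65). These are descriptions of libraries that share treatment, depth and size factor, and the members with few reads add counting error.

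**Figure D5:**
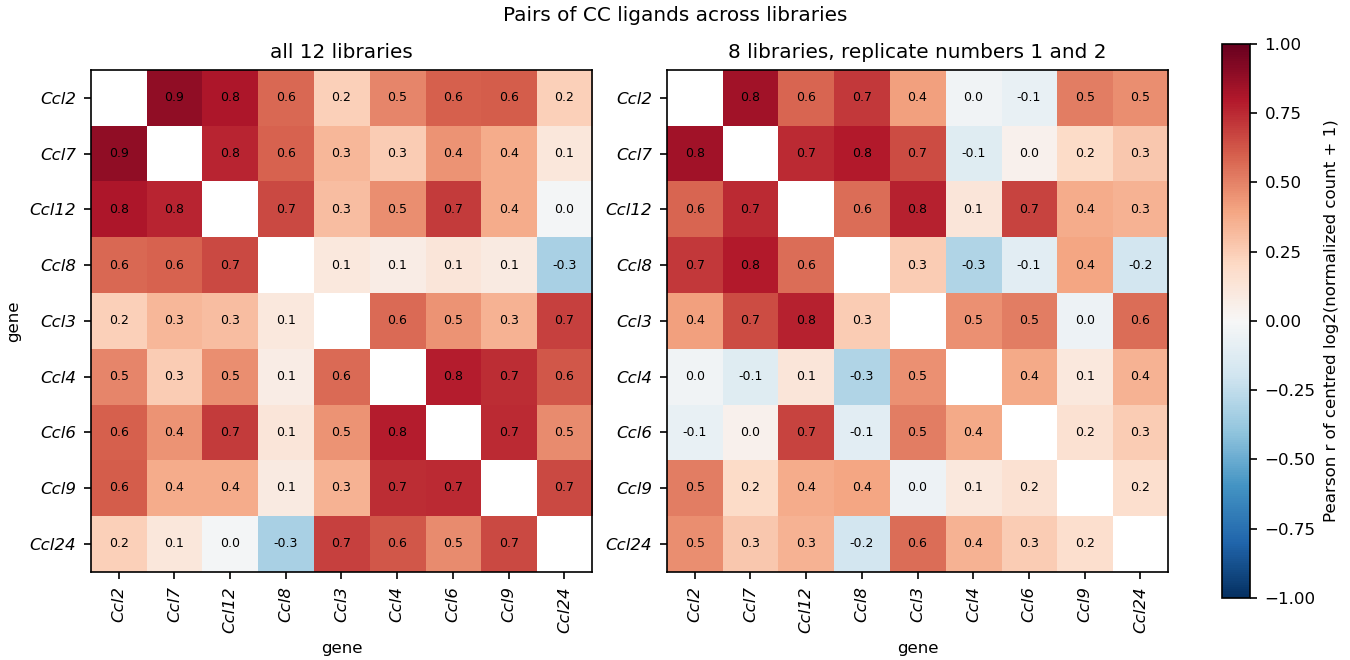
Pearson r between pairs of CC ligands (both axes) across all 12 libraries (left) and across the 8 libraries of replicate numbers 1 and 2 (right), from log2(normalized count + 1) centred within each population. The block of Ccl2, Ccl7, Ccl12 and Ccl8 has values of 0.56 to 0.84 on the right, although over F4/80hi libraries alone the pairs with Ccl8 are at 0.27 to 0.34, and Ccl6 and Ccl9 have 0.16 on the right. Ccl3 and Ccl12, from different clusters, have 0.77 on the right.

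Among the other 10096 genes tested in both populations, the pattern of Ccl2 was most like that of Ccl7 (r = 0.88), Trim8 (0.87), Usp18 (0.87), Gm37490 (0.86) and Atp5b (0.86), over 12 libraries. That of Ccl6 was most like Snapc5 (0.92), Elob (0.92), Ywhae (0.92), Rala (0.92) and Atox1 (0.91).

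The rest of the CC family was sparse. Of the 13 other CC ligands, 4 passed the filter for F4/80lo Mϕ (Ccl5, Ccl17, Ccl22 and Ccl25) and 2 of them also for F4/80hi Mϕ (Ccl5 and Ccl25). Between CIII and VEH 0 of them had an unadjusted p under 0.05, beside 289 of 10718 and 413 of 10499 of all genes tested. Ccl5, a T cell and monocyte attractant, averaged 38.9 with VEH and 42.4 with CIII in F4/80lo Mϕ, and its level in RPM differed by 2.03 on the log2 scale, F4/80lo minus F4/80hi (limma unadjusted p = 0.0228, adjusted 0.437). Ccl25, a ligand of Ccr9, averaged 17.0 and 18.8. The Ccr4 ligands Ccl17 and Ccl22 averaged 6.85 and 9.41 with VEH and 0 and 0.841 with CIII in F4/80lo Mϕ, but both VEH means came from VEH library 2 (20.5 and 28.2), and the other VEH libraries were at 0.

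Of 16 CC and atypical chemokine receptors, F4/80lo Mϕ had 6 and F4/80hi Mϕ 5 that were tested, and 0 had an unadjusted p under 0.05 in either. Over all genes tested, 289 of 10718 in F4/80lo Mϕ and 413 of 10499 in F4/80hi Mϕ had such a p. Ccr1, the receptor of Ccl6 and Ccl9, averaged 168 with VEH and 173 with CIII for F4/80lo Mϕ, and for F4/80hi Mϕ 233 and 216, differences of 0.055 and -0.19. Ccr2, the receptor of Ccl2, Ccl7 and Ccl12, averaged 957 and 1314 in F4/80lo Mϕ (0.45). Its mean in F4/80hi Mϕ was 463 with VEH and 351 with CIII while its log2 difference was 1.30 (limma unadjusted p = 0.359), since the VEH mean came mostly from library 3 (1321). Ccr8 was at 0 reads in every library, and Ccr3, the receptor of Ccl24, had a read in 4 of 12.

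Neither signalling nor decay genes gave a call at an unadjusted p under 0.05. Over all genes tested, 289 of 10718 in F4/80lo Mϕ and 413 of 10499 in F4/80hi Mϕ reached that p. A count of 0 in lists this small therefore says little about these genes. Of 16 genes of chemokine receptor signalling, 0 had an unadjusted p under 0.05 in either population, and of 8 genes of chemokine mRNA decay, among them Zfp36, which binds AU-rich ends of short-lived mRNAs, also 0. Zfp36 averaged 210 with VEH and 231 with CIII in F4/80lo Mϕ. Of 16 NF-kB genes 1 was lower at that p in F4/80lo Mϕ, beside 1.61% of all genes, and 11 had a higher mean log2 value with CIII. The 1 was Tnfaip3, a feedback inhibitor that NF-kB itself induces, at 20.9, 7.70 and 17.0 with VEH and 7.09, 0 and 4.42 with CIII (-2.10, limma unadjusted p = 0.043). The median difference over the NF-kB list was 0.24 for F4/80lo Mϕ, and 0.35 for F4/80hi Mϕ, beside -0.052 and 0.053 over all genes. Nfkbia averaged 1023 and 1161 in F4/80lo Mϕ, a difference of 0.17.

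Markers of other cells were looked up because neutrophils, dendritic cells and eosinophils can also make CC ligands. The gating set CD11c+ MHCII+ dendritic cells aside before the myeloid gate and parted Ly6G+ neutrophils from F4/80lo Mϕ. These lists are small too, so a count of 0 at an unadjusted p under 0.05 again says little. Of 13 neutrophil markers, 9 had a read in VEH and 8 in CIII libraries of F4/80lo Mϕ, at a summed 49.4 to 76.7 and 36.9 to 56.3 RPM, with 0 of 4 tested at an unadjusted p under 0.05. In F4/80hi Mϕ the sums were 52.5 to 128 and 41.9 to 60.7, and 1 of 3 tested, S100a8, was lower with CIII at that p (normalized counts of 39.9, 24.8 and 81.8 against 12.3, 6.01 and 13.7, limma unadjusted p = 0.00568), beside 2.65% of all genes. Camp and Ngp were at 0 in all libraries, Ly6g had a read in 2 and Mpo in 1. Csf3r and S100a8, in contrast, had reads in 12 of 12 libraries and Mmp9 in 9.

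Dendritic cell markers summed to 27.4 to 336 RPM with VEH and 86.9 to 197 with CIII in F4/80lo Mϕ, and to 33.8 or less in F4/80hi Mϕ, where 0 of 2 tested were at an unadjusted p under 0.05. In F4/80lo Mϕ 1 of the 6 tested, Btla, was higher at an unadjusted p under 0.05 (2.08, limma unadjusted p = 0.016), beside 1.08% of all genes. B cell markers summed to 22.4 to 137 with VEH and 27.8 to 222 with CIII in F4/80lo Mϕ, with 0 of 4 tested at that p, and T and NK cell markers to 14.1 to 26.3 and 17.4 to 63.3, with 0 of 5. In F4/80hi Mϕ B cell markers summed to 1.45 to 45.7 and 16.6 to 79.8 and T and NK cell markers to 1.45 to 75.2 and 4.59 to 9.48, with 0 of 2 tested at that p in each list. Eosinophil and mast cell markers summed to 16.9 or less, with Epx, Prg2 and Il5ra at 0, and mesothelial markers to 1.9 or less, with Msln and Upk3b at 0.

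Within the Mϕ themselves, 3 of 13 genes of monocyte-derived Mϕ were higher with CIII at an unadjusted p under 0.05 in F4/80lo Mϕ (Itgb7, Cx3cr1 and H2-Eb1), beside 1.08% of all genes tested, and 4 of 12 in F4/80hi Mϕ (Itgb7, Cx3cr1, H2-Ab1 and H2-Aa), beside 1.29%. That list summed to 6907 to 30648 RPM with VEH and 30451 to 47699 with CIII in F4/80lo Mϕ, and to 5762 to 18654 and 23769 to 30820 in F4/80hi Mϕ. Fn1 alone had 1939 to 18420 RPM among F4/80lo libraries and 1910 to 24925 among F4/80hi libraries, so 1 gene carried much of these sums. By mean log2 value 4 of its 13 genes were lower with CIII in F4/80lo Mϕ. In F4/80hi Mϕ 2 of 12 were lower, and Ly6c2 and Retnla were lower in both populations. Genes of resident Mϕ summed to 598 to 1426 and 838 to 1859 in F4/80lo Mϕ, with 0 of 11 at that p, and to 745 to 6674 and 1068 to 4315 in F4/80hi Mϕ, with 1 of 12, Mertk, higher (0.77, limma unadjusted p = 0.0362). Of these 12 genes 10 had a lower mean log2 value with CIII in F4/80hi Mϕ. Their median difference there was -0.36, beside 0.053 over all genes. The list of monocyte-derived Mϕ holds MHC class II genes, and MHCII was part of the F4/80lo sort. It also holds Itgb7 and Cx3cr1, on which the study had settled with these same libraries, so its counts are not independent evidence of a direction. Its highest VEH sum lay above its lowest CIII sum for F4/80lo Mϕ but below it for F4/80hi Mϕ, and its part in the ligand values was not tested.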

How the data were processed

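mRNA of sorted Mϕ was sequenced in 12 libraries made with a 3′ kit and unique molecular identifiers. According to the study's methods and processing notes, the authors mapped reads to GRCm38 with STAR, collapsed duplicates, counted genes with HTSeq and scaled with DESeq2. The deposited normalized signal is a read count divided by 1 size factor per library, set in each population separately, and 100% of values were whole multiples of 1 read (tolerance 0.01 read), so reads were recovered. Symbols and coordinates came from GENCODE for 47224 of 47643 identifiers, and no column was without a sample.

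CIII was compared with VEH by limma 3.58.1 (R 4.3.3) on log2(normalized count + 1), over genes with a mean of at least 3, with Benjamini-Hochberg adjustment over all genes tested and a threshold of 0.05. Fold changes of low genes are understated by the pseudocount. Levels were compared on log2(RPM + 1), with RPM the reads per 1000000. All tests were two-sided. edgeR 4.0.16 and DESeq2 1.42.0 were run on recovered reads, and the comparisons of CIII with VEH by limma, edgeR and DESeq2, without the block, were checked on simulated counts. The outcome of that check is not reported here. Fits with the block, among them the edgeR fit that called Ccl24, were not simulated. With the same replicate number, VEH and CIII libraries deviated together from their group means (correlation across genes in F4/80lo Mϕ 0.121 for number 1, 0.238 for 2 and 0.504 for 3; for F4/80hi Mϕ 0.216, 0.412 and 0.639). VEH library 1 correlated more with CIII library 2 (0.171 and 0.285) than with CIII library 1, so the data do not single out the pair of number 1. This pairing rests on the numbers and the data alone. The members and gene lists were chosen with earlier results of these data known. Named in the text were all members, up to 4 genes of each other list (unadjusted p under 0.05, otherwise the most abundant) and the 5 genes most like Ccl2 and Ccl6. A gene named outside this rule was chosen after seeing its values. matplotlib 3.10.9 drew the figures.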

Additional observations from a re-analysis of the deposited data

How the results depend on the processing

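The limits lie in depth and in number 3. Of the members 7 had at most 234 RPM in every library, and 3 libraries a group cannot give an exact p under 0.1. Of the 5 members lower in F4/80lo Mϕ at an unadjusted p under 0.05, 2 were left with a mean of at least 10 and 3 under quantile normalization, and 3 to 5 members passed when 1 library was left out (3 without VEH library 2, CIII library 2 or CIII library 3). Without VEH library 3, and from numbers 1 and 2, these were Ccl2, Ccl3, Ccl7 and Ccl24. With edgeR and with array weights Ccl24 took the place of Ccl8, which was also lost with DESeq2, a pseudocount of 5 and no filter. The 1 in F4/80hi Mϕ became 2 with edgeR, 3 with DESeq2, 3 with the replicate block, 4 with edgeR and the block and 2 from numbers 1 and 2, and 0 to 2 with 1 library left out (0 without CIII library 3, 2 without VEH library 3 or CIII library 2, Ccl2 in place of Ccl4 without VEH library 1 and Ccl12 in its place without VEH library 2). Ccl8 was higher there at that p with array weights and without VEH library 3. The 1 for the difference between populations became 0 with a pseudocount of 5, array weights, edgeR and DESeq2, and 0 to 1 with 1 library left out (0 without library 2 of either F4/80lo group, CIII library 3 of F4/80lo, library 1 of either F4/80hi group or VEH library 2 of F4/80hi). It was Ccl8, but Ccl7 without CIII library 3 of F4/80hi and from numbers 1 and 2, and Ccl3 without VEH library 3 of F4/80lo and with edgeR and the block. The 0 members for level became 1 with the block. At an adjusted p under 0.05 the block changed no other call of a member except that of Ccl24 by edgeR. At an unadjusted p under 0.05 it added Ccl24 in F4/80lo Mϕ, Ccl12 and Ccl24 in F4/80hi Mϕ and Ccl4 for level.

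Over all genes, counts at an unadjusted p under 0.05 went from 289 in F4/80lo Mϕ to 468 with no filter, 738 with the block, 1228 with array weights, 661 with edgeR and the block, 507 from numbers 1 and 2, and 154 to 669 with 1 library left out (154 without VEH library 1, 669 without VEH library 3). In F4/80hi Mϕ 413 became 1187 (block), 822 (array weights), 1055 (edgeR with the block), 732 (numbers 1 and 2) and 233 to 1037 (233 without VEH library 1, 270 without CIII library 2, 1037 without VEH library 3). For the difference 173 became 352 (no filter), 539 (block), 497 (array weights), 452 (edgeR with the block), 325 (numbers 1 and 2) and 122 to 318 (318 without VEH library 3 of F4/80hi, 314 without CIII library 3 of F4/80lo). For level 1016 became 460 (VEH only), 654 (CIII only), 2195 (block), 1800 (numbers 1 and 2) and 715 to 1646 (1646 without VEH library 3 of F4/80hi). At an adjusted p under 0.05 the 4 genes for level became 0 with a pseudocount of 0.5, no filter or VEH only, 2 with a mean of at least 10, TMM, CIII only or edgeR, 11 with a pseudocount of 5, 514 with the block, 262 from numbers 1 and 2 and 0 to 124 with 1 library left out (54 without VEH library 3 of F4/80lo, 124 and 8 without VEH and CIII library 3 of F4/80hi, 0 without any other).

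Log2 differences that changed sign were small or rested on few libraries. In F4/80lo Mϕ Ccl9 was 0.067 with array weights, 0.036 from numbers 1 and 2 and -0.44 to 0.16 with 1 library left out. In F4/80hi Mϕ Ccl2 was 0.19 and Ccl7 0.90 from numbers 1 and 2, Ccl7 0.38 with array weights and -1.86 to 0.038 with 1 library left out, and Ccl3 -1.22 to 0.088. For the difference between populations Ccl4 was 0.29 with a pseudocount of 5, 0.23 with edgeR, 0.26 with DESeq2, 0.048 with edgeR and the block, 0.79 from numbers 1 and 2 and -0.83 to 1.10 with 1 library left out, Ccl6 was -0.31 under quantile normalization, and Ccl24 -2.30 to 1.12 with 1 library left out. For level Ccl2 was -0.19 from CIII libraries, -0.10 with edgeR and -0.14 to 0.64 with 1 library left out, Ccl7 0.61, Ccl8 0.045 and Ccl9 -0.018 from VEH libraries, Ccl7 -0.89 to 0.11 and Ccl24 -1.02 to 0.76 with 1 library left out. Among F4/80lo libraries 8 members, and among F4/80hi libraries 6, kept their direction in the 19 alternatives, less those whose filter left a member out. The cause of these changes was not tested.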
